A study of Mus musculus with 6 samples.

Results

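miR-21a is the mouse miR-21, and its hairpin gives 2 mature RNAs, miR-21a-5p and miR-21a-3p. Both were chosen by name, and they are 2 of the 1976 mature miRNA rows in the table. The series measured small RNA in extracellular vesicles, which the labels call exosomes, released by primary hepatocytes of wild-type C57BL/6J mice. The 6 libraries are 3 controls, whose cells had palmitic acid at 0 µM, and 3 whose cells had it at 600 µM. This saturated fatty acid loads hepatocytes with lipid. Sex, age, vehicle and duration are not known from the labels. Nor do the labels tell whether replicates were separate mice or hepatocyte cultures. Every p-value is therefore a statement about the scatter of these 6 libraries, and part or all of that scatter may be technical.

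A miRNA is cut from a hairpin precursor into a short duplex, of which 1 arm is usually kept as the guide and the other, the passenger, is degraded. The guide finds target transcripts mainly through its seed, bases 2 to 8 from the 5′ end. miR-21-5p is a guide made by many cell types. It is known for its rise in injured, fibrotic and malignant liver. The 3p arm is the passenger of this hairpin in most tissues.

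The mature sequences of both arms are shown with those of miR-21b and miR-21c, whose reads could be mistaken for miR-21a-5p; capitals mark the seed. They are RefSeq sequences on GRCm38.p6.
mmu-miR-21a-5p: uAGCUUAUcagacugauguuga
mmu-miR-21a-3p: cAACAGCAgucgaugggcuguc
mmu-miR-21b: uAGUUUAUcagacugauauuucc
mmu-miR-21c: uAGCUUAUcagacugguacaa

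miR-21a-5p lies at chr11:86584120-86584141 and miR-21a-3p at chr11:86584082-86584103, both on the minus strand. Their 92-base hairpin, Mir21a (chr11:86584067-86584158), lies in the untranslated part of exon 12 of the protein-coding gene Vmp1, at its 3′ end and on the same strand (GENCODE M21). Vmp1 encodes a membrane protein needed for autophagy. miR-21c (chr8:128278188-128278208, minus strand) shares the first 15 bases of miR-21a-5p and so its seed. From there it differs by A16G, G18A, U19C, U20A and G21A, counted from the 5′ end with the base of miR-21a-5p first. miR-21b (chr3:29636768-29636790, plus strand, within the gene Egfem1 and outside its annotated exons) differs by C4U, which is inside the seed, and by G18A, G21U and A22C. Of 1679 mature sequences in the reference, only miR-21a-5p and miR-21c hold the seed AGCUUAU, and only miR-21a-3p holds AACAGCA. This reference covers 1677 of the 1976 rows. It has no sequence of mmu-miR-590-5p, whose seed was therefore not compared and which is listed at 0 in all 6 libraries.

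The table holds log2(adjusted count + 1), in which counts were adjusted by the authors to a common library size. Reads were recovered from these values and totalled 95253 to 657658 per control library and 613483 to 799103 per palmitic acid library. miR-122 and miR-122b, hepatocyte miRNAs encoded by overlapping hairpins, held 78.7% ± 9.26 (SD, n = 3) of the summed adjusted counts in controls and 13.3% ± 1.82 (SD, n = 3) with palmitic acid. Without these rows 29344 to 80744 reads were left per control library and 534302 to 676785 per palmitic acid library. Shares of miR-21a are therefore given with and without them. Among libraries, control replicate 2 held the most miR-122 reads and the smallest share of miR-21a-5p. All 6 hepatocyte markers were tested, and 5 of them had reads in every library; miR-192-3p had none in controls.

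miR-21a-5p was among the 10 most abundant miRNAs of every control library and was 1st or 2nd in every palmitic acid library. Its deposited log2 values in control replicates 1 to 3 were 11.60, 12.33 and 11.58. The palmitic acid replicates 1 to 3 stood at 16.13, 15.52 and 15.52. The groups did not overlap, and the lowest palmitic acid library held 9.12 times the adjusted count of the highest control library.

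Behind these values were 998, 1895 and 1421 recovered reads for the controls. The palmitic acid libraries gave 146810, 134195 and 79176. In the limma fit the log2 difference was 3.89 with an SE of 0.47 and an adjusted p of 2.4e-04 (95% interval 2.80 to 4.97). As a fold of (adjusted count + 1) this was 14.8, between 6.99 and 31.3. In vesicle preparations, more vesicles of a kind and more miR-21a-5p per vesicle cannot be told apart.

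**Figure D1:**
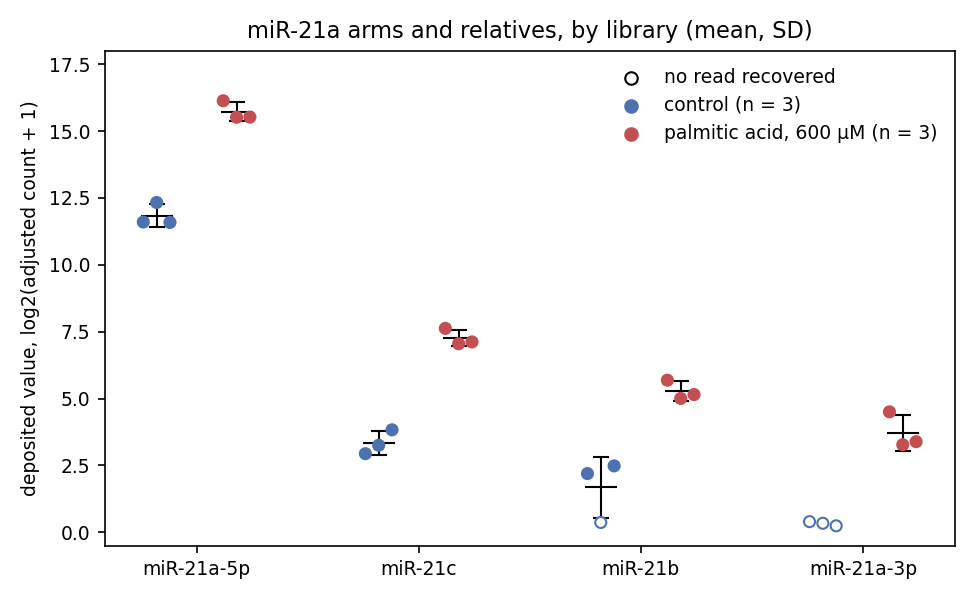
Deposited values, log2(adjusted count + 1), of both miR-21a arms and of miR-21c and miR-21b in each control and palmitic acid library; points are libraries, bars the mean and SD (n = 3), and open points libraries without a recovered read. For all 4 miRNAs the palmitic acid libraries lie above the control libraries, and miR-21a-3p has no read in any control.

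Higher values were common in this comparison. Of 181 tested miRNAs, 102 differed (56.4%), 76 of them higher with palmitic acid (42.0%) and 26 lower (14.4%). Another view gives a like share: 112 had an unadjusted p below 0.05, and 48.6% had palmitic acid libraries all above the controls (68.0% had groups apart in either direction). The filter shaped those shares, and the median difference below, in part. Testing required a minimum adjusted count in as many libraries as a group holds. A miRNA under it in every control library was therefore tested only if it was higher with palmitic acid. The reverse held for miRNAs under it in every palmitic acid library, which were fewer. With no filter, 88 of 1058 rows were called higher and 60 lower. The call on miR-21a-5p, which reached the minimum in every library, is to be read against those shares with this limit. By size of change it came 47th of the 181, and by p-value 26th. None of the 46 miRNAs with a larger change was as abundant with palmitic acid. The spread of miR-21a-5p within groups was small, with a residual SD of 0.39 against a median of 0.82 over tested miRNAs.

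The size of the difference depended on the scale. The median tested miRNA stood at 1.94, so miR-21a-5p lay 1.95 above it. With library totals as the scale the difference was 4.86 beside a median of 2.93. With totals that leave out miR-122 and miR-122b it was 2.74 beside a median of 1.02. The split of calls moved too, from 76 higher and 26 lower to 92 and 9 with library totals and to 58 and 45 with totals that leave out miR-122. On each of these scales miR-21a-5p passed (limma adjusted p = 1.3e-05 and 1.8e-04).

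**Figure D2:**
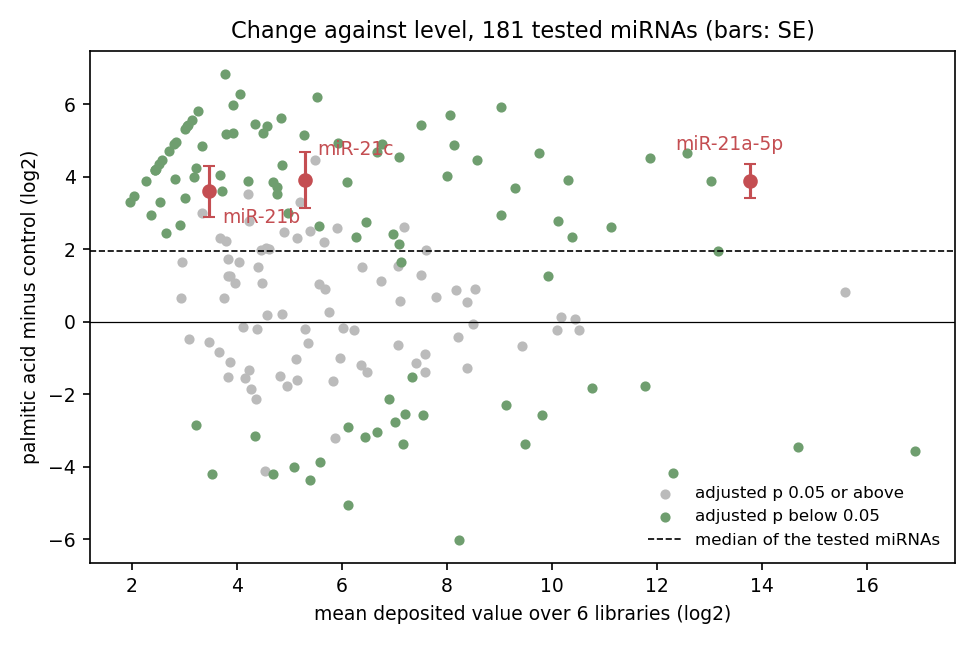
Log2 difference between palmitic acid and control vesicles against the mean deposited log2 value over 6 libraries, 1 point for each of 181 tested miRNAs, with miR-21a-5p, miR-21b and miR-21c in red with their SE. miR-21a-5p lies at 3.89, above the dashed median of 1.94, and far to the right of its relatives in abundance.

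As a share of the library sum, miR-21a-5p made up 1.05%, 0.288% and 0.563% of control replicates 1, 2 and 3. Its palmitic acid shares were 18.4%, 17.6% and 12.9%. Group means were 0.633% ± 0.385 (SD, n = 3) and 16.3% ± 2.96 (SD, n = 3), a 25.7-fold ratio of means. An exact permutation test, two-sided, returned p = 0.1; with 3 against 3 it can return no smaller value. Counting error was small beside this difference: the 95% Clopper-Pearson intervals of the read shares were 0.984 to 1.11%, 0.275 to 0.301% and 0.534 to 0.593% in controls. They were 18.3 to 18.5%, 17.5 to 17.7% and 12.8 to 12.99% with palmitic acid. PCR copies are not independent molecules, so these intervals and the floors used for miR-21a-3p speak to counting error only.

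Leaving out the miR-122 and miR-122b rows narrowed the gap and kept the groups apart. The control shares were then 3.41%, 2.35% and 2.70%. The palmitic acid shares were 21.7%, 19.96% and 14.8%. The means were 2.82% ± 0.539 and 18.8% ± 3.57 (SD, n = 3 each, exact permutation p = 0.1), a 6.68-fold ratio. The difference in percentage points was nearly the same with the miR-122 rows (15.7) and without them (16.0), whereas the ratio of means fell from 25.7 to 6.68. The lowest palmitic acid share was 12.3 times the highest control share with those rows and 4.35 times without them.

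**Figure D3:**
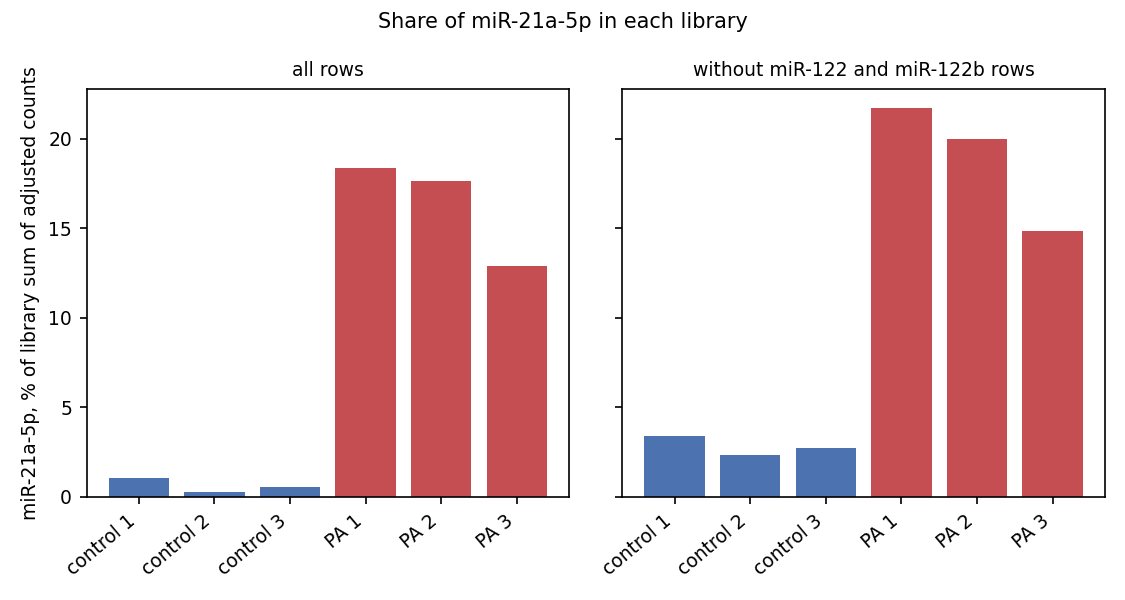
Share of miR-21a-5p in the summed adjusted counts of each library (%), over all rows on the left and without the miR-122 and miR-122b rows on the right; blue bars are control libraries and red bars palmitic acid (PA) libraries. Shares of 0.288 to 1.05% in controls become 2.35 to 3.41% without miR-122, and all palmitic acid bars stand above 12%.

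Among all rows of a control library, miR-21a-5p ranked 7th, 8th and 10th (replicates 1 to 3). Among those of a palmitic acid library it ranked 1st, 1st and 2nd. With miR-122 and miR-122b out, the control ranks were 5, 6 and 8 and the others stayed at 1, 1 and 2. Ordered by mean adjusted count, control vesicles had miR-122-5p, miR-122b-3p, miR-148a-3p, miR-6239, miR-99a-5p and miR-192-5p above it, and let-7c-5p just below. Its control values overlapped those of miR-99a-5p, miR-192-5p and let-7c-5p, so its order among these neighbours is not set. The 4 above lay clear of it.

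Only miR-148a-3p, an abundant liver miRNA, had a higher mean with palmitic acid. Its adjusted counts of 67140, 38430 and 111100 overlapped the 71710, 46860 and 46990 of miR-21a-5p. miR-122-5p, next below, overlapped miR-21a-5p as well, at 48910, 25140 and 39100. let-7f-5p, the one after it, did not, at 29470, 29120 and 38350.

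Ratios within a library do not depend on the library's scale. For every miR-122-5p count there were 0.0186, 0.00388 and 0.00862 counts of miR-21a-5p in the control libraries. The palmitic acid libraries had 1.47, 1.86 and 1.20. Against miR-192-5p, a hepatocyte and gut epithelial miRNA, the control ratios were 1.03, 0.435 and 1.04 and the palmitic acid ratios 3.18, 2.93 and 2.87. Against let-7a-5p, a broadly expressed growth regulator, it was 2.93, 2.40 and 1.72 and then 69.9, 37.9 and 24.0. None of these 3 ratios overlapped between groups.

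let-7f-5p gave another picture: control libraries had 1.74, 1.37 and 1.99 counts of miR-21a-5p for each let-7f-5p, and palmitic acid libraries 2.43, 1.61 and 1.23, so the groups overlapped. Against miR-30a-5p, 4.41, 4.08 and 5.57 in controls stood above 2.82, 2.41 and 3.95, without overlap. The ratio of miR-21a-5p to 180 other tested miRNAs was higher with palmitic acid, without overlap, for 89 of them (49.4%). It was lower without overlap for 23, and 68 ratios overlapped. For the median tested miRNA 46 ratios were higher in this way, and 38 miRNAs had more than miR-21a-5p.

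The miRNAs most like miR-21a-5p over the 6 libraries were found by the root mean square difference of the deposited log2 values, each miRNA's own mean being taken off. let-7f-5p came first at 0.328, before miR-26b-5p (0.352), miR-148b-5p (0.382), miR-21c (0.392) and miR-30a-5p (0.403). The median over the other tested miRNAs was 1.61. miR-148b-5p had no control read, so its likeness rests on values given to 0 reads. All 5 passed in the limma fit, at 3.88, 4.02, 3.46, 3.92 and 4.52 on the log2 scale in that order (42.0% of all tested were called higher). They were picked from these same libraries for likeness to miR-21a-5p, so calls and differences near its own follow from the choice. The filter fixed the direction of miR-148b-5p, which was tested only through its palmitic acid libraries. miR-21c too passed the filter only with the help of its palmitic acid libraries.

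miR-21a-3p, the passenger arm, was read only in palmitic acid vesicles and was rare there. No control library gave a read, and palmitic acid replicates 1 to 3 gave 44, 25 and 16. Its control log2 values of 0.40, 0.34 and 0.24 stand for 0 reads, and the palmitic acid libraries stood at 4.503, 3.27 and 3.39. Scaled to reads per 1000000 (RPM), the palmitic acid libraries held 55.1, 32.8 and 26.1. Over the 3 control libraries together, 0 reads allow up to 3, or 2.98 RPM. The palmitic acid mean of 38.0 ± 15.2 RPM (SD, n = 3) was 12.7 times that floor. This bound takes counting error in the controls alone and leaves out the spread of the palmitic acid libraries. Control replicate 2 holds most reads of the control libraries, and without it the bound was 4.40-fold. Without miR-122 and miR-122b reads the bound was 2.39-fold (1.20-fold without control replicate 2), since a control floor of 18.4 RPM stood against 44.1 ± 18.5 RPM (SD, n = 3).

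Adjusted counts of miR-21a-3p were 21.7, 8.66 and 9.46 with palmitic acid, so it missed the filter of 10 in at least 3 libraries and has no adjusted p in the fit of 181 miRNAs. Its groups differed by 3.40 on the deposited log2 scale (exact two-sided permutation p = 0.1). With no filter, that difference passed over 1058 rows (SE 0.47, limma adjusted p = 0.0146, with 14.0% of rows called). This p and the 3.40 depend on the values given to 0 reads. By the same likeness measure its pattern was nearest to miR-331-3p (0.390, without a control read either), then to miR-21a-5p and miR-148b-5p (0.395 each), miR-21c (0.456) and miR-23b-3p (0.495). Its ranks among all rows of the palmitic acid libraries were 150, 184 and 183. As a share of the sum it held 0.00555%, 0.00326% and 0.00260% there.

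The 2 arms were unequal by a wide margin. For each miR-21a-3p read there were 3337, 5368 and 4948 miR-21a-5p reads in the palmitic acid libraries (replicates 1 to 3). The 3p arm made up 0.0300% (95% Clopper-Pearson interval 0.0218 to 0.0402), 0.0186% (0.0120 to 0.0275) and 0.0202% (0.0116 to 0.0328) of hairpin reads. These intervals overlapped. In controls 0 of 4314 hairpin reads were of the 3p arm, which allows a share of up to 0.0695%, above the 0.0236% of the palmitic acid libraries together.

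At the palmitic acid ratio the control libraries would hold 0.236, 0.447 and 0.335 reads of miR-21a-3p, or 1.02 in all. A difference in arm ratio between the groups was therefore not detectable at this depth. With 0.5 added to each adjusted count, the log2 ratio of 5p to 3p differed by -0.19 between palmitic acid and control (exact two-sided permutation p = 0.6), and its sign turned to 0.49 with 1 added. With 0.1 added it was -1.24 (exact permutation p = 0.1, the smallest possible here). It turned to above 0 without control replicate 2 (0.051) and without palmitic acid replicate 1 (0.016).

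Arm ratios of other hairpins give the scale. Among 82 hairpins with at least 100 reads in the 3 palmitic acid libraries together and a read of each arm, 54 had more 5p than 3p reads. miR-21a had the highest ratio, with 4237 5p reads for each 3p read. let-7i followed at 4064, from 8 passenger reads, and its passenger share of 0.0246% (0.0106 to 0.0485) was not distinguishable from that of miR-21a at 0.0236% (0.0189 to 0.0292). miR-99a stood at 2042 and miR-122 at 1161. At the other end miR-148a had 434792 3p reads and 60 5p reads, and miR-101a 31175 and 12. A further 17 hairpins with a read of 1 arm only have no ratio and are not in this order.

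**Figure D4:**
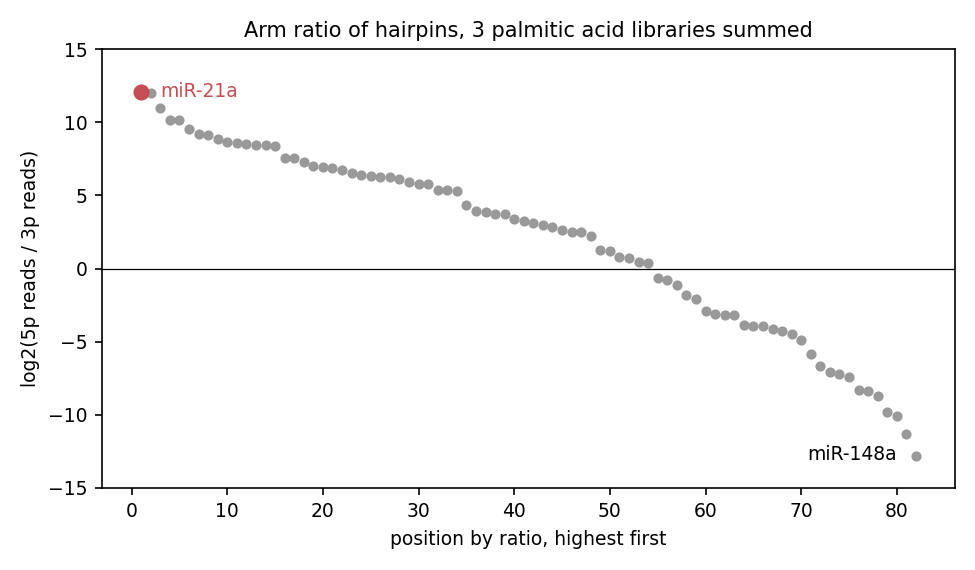
Log2 ratio of 5p to 3p reads, summed over the 3 palmitic acid libraries, for 82 hairpins with both arms read, ordered from the highest ratio; the red point is miR-21a. It stands first at a log2 ratio of 12.1, and miR-148a stands last at -12.8.

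The relatives miR-21c and miR-21b were higher with palmitic acid as well, at far lower levels than miR-21a-5p. miR-21c had 2, 3 and 6 reads in the control libraries. Its palmitic acid libraries had 401, 376 and 232. Its deposited log2 values rose from 2.94, 3.25 and 3.83 to 7.62, 7.05 and 7.12, a difference of 3.92 (SE 0.77, limma adjusted p = 0.00293). Of its control adjusted counts of 6.67, 8.53 and 13.2, only that of replicate 3 reached the filter of 10. miR-21c was thus tested only because its palmitic acid libraries were high. miR-21b had 1, 0 and 2 control reads against 103, 89 and 58 in palmitic acid libraries. It rose by 3.60 (SE 0.70, limma adjusted p = 0.00278). Its control adjusted counts of 3.58, 0.290 and 4.59 lay below the filter of 10. It was thus tested only because its palmitic acid libraries were high, and the filter fixed the direction of this call. That call was lost with totals that leave out miR-122 and miR-122b as the scale (3.06, adjusted p = 0.0648) and with a GC trend removed (1.90, adjusted p = 0.0508; 7.3e-04 to 0.0648 over its alternatives).

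Per 1000 reads of miR-21a-5p, palmitic acid libraries held 2.73, 2.80 and 2.93 reads of miR-21c and 0.702, 0.663 and 0.733 of miR-21b. Control libraries held 2.004, 1.58 and 4.22 of miR-21c and 1.002, 0 and 1.41 of miR-21b. The groups overlapped for both (exact two-sided permutation p = 1 for miR-21c and 0.8 for miR-21b). Over all libraries of a group, miR-21c stood at 2.55 per 1000 in controls and 2.80 with palmitic acid, and miR-21b at 0.695 and 0.694.

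As a percentage of reads of the pair, miR-21c stood at 0.254% (0.127 to 0.455) in controls and 0.279% (0.262 to 0.297) with palmitic acid. The same seed and the 15 shared bases printed above apply to miR-21c, and miR-21b shares a run of 13 bases with miR-21a-5p. Whether reads of miR-21a-5p were counted under these names was not tested, so the 3 rows are not independent measurements with certainty.

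**Figure D5:**
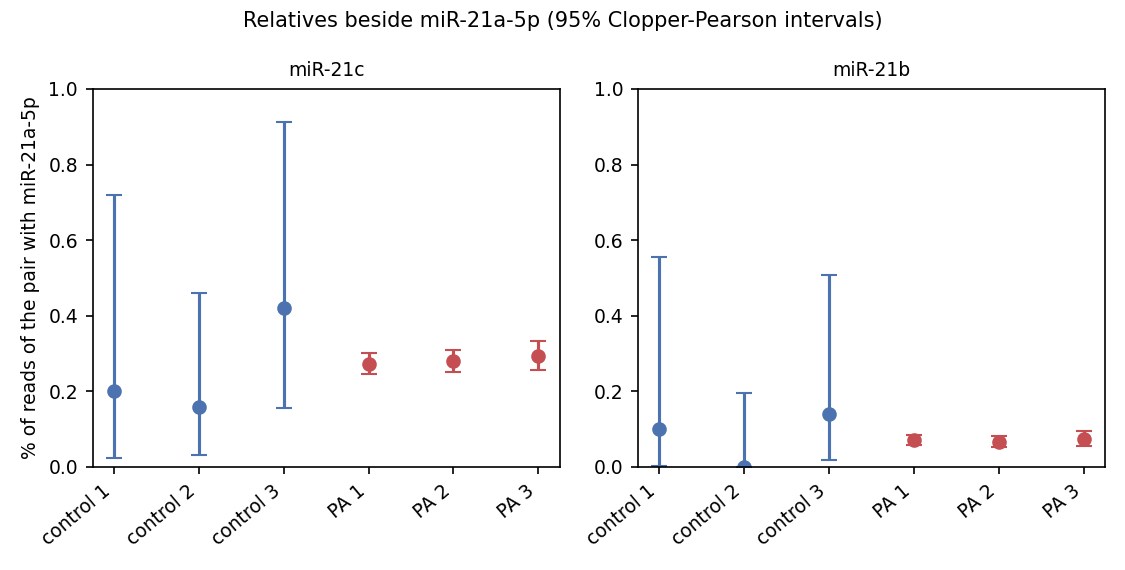
Reads of miR-21c (left) and miR-21b (right) as a percentage of their sum with miR-21a-5p in each control and palmitic acid (PA) library, with 95% Clopper-Pearson intervals for counting error. The palmitic acid points lie within 0.272 to 0.292% and 0.0663 to 0.0732%, and the wide control intervals hold those values.

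Base composition moved with the changes. Over 161 tested miRNAs with a reference sequence, log2 differences ran against GC content (Spearman rho = -0.39, Pearson r = -0.38, across miRNAs of the same 6 libraries, which are not independent replicates). miR-21a-5p has a GC content of 36.4%. The 53 tested miRNAs within 5 percentage points of it, itself included, had a median difference of 3.52, and 22 of them changed more than miR-21a-5p. With a linear GC trend removed from each library, miR-21a-5p stood at 2.77 (limma adjusted p = 8.3e-04). miR-21a-3p has a GC content of 59.1%, and the 29 tested miRNAs within 5 points of that had a median difference of 0.65. The part of base composition in the result was not tested further.

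miRNAs linked to liver injury, inflammation and fibrosis, among which miR-21 is usually counted, did not move as a block. Of 14 tested, 4 rose (28.6%, beside 42.0% of all tested), 2 fell (14.3% beside 14.4%) while 8 had no call; the median of all 14 was 1.53 beside 1.94. The rises were in miR-34a-5p (5.31), a p53 target without a control read, whose direction the filter fixed. They were also in miR-29a-3p (3.69) and miR-29c-3p (6.29), which repress collagen transcripts, and in miR-192-5p (1.94). With 1 control read, miR-29c-3p too had its direction fixed by the filter. The miR-29a-3p call was lost with no filter (limma adjusted p = 0.071, with 4.7e-05 to 0.071 over its alternatives). miR-122-5p (-3.56) and miR-146a-5p (-2.13), a brake on NF-kB signalling, fell. Only miR-34a-5p and miR-29c-3p changed more than miR-21a-5p.

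Some of these calls were lost with fewer libraries or on other scales, although the differences stayed on the same side of 0. The miR-192-5p call was lost without control replicate 1 or 3 or any 1 palmitic acid library (limma adjusted p = 0.0852, 0.0834, 0.0867, 0.0602 and 0.0728; 1.1e-04 to 0.128 over its alternatives), with differences of 1.60 to 2.03 in place of 1.94. That of miR-146a-5p was lost without control replicate 1 or 2 or any 1 palmitic acid library (0.0850, 0.0891, 0.0665, 0.0924 and 0.0912; 0.00285 to 0.337), with -2.22 to -1.75 in place of -2.13. That of miR-122-5p was lost without any 1 palmitic acid library (0.0778, 0.0892 and 0.0790; 1.3e-05 to 0.105), with -3.77 to -3.29 in place of -3.56. It was lost as well with no filter (0.0558) and with the replicate number as a block (0.105). Other scales ended the miR-192-5p call too. It stood at 0.79 with totals that leave out miR-122 and miR-122b (limma adjusted p = 0.105). With libraries centred on their median tested miRNA it stood at 1.15 (0.128), and by their upper quartile at 1.39 (0.0571). The miR-146a-5p call was lost with library totals (-1.17, limma adjusted p = 0.337) and RPM (-1.17, 0.335). No filter ended both (0.108 and 0.097). The call on miR-21a-5p was kept without each library in turn, with differences from 3.68 to 4.13 and adjusted p from 3.4e-04 to 0.00193.

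Broadly expressed miRNAs, found like miR-21a-5p in most cell types, split. Of 20 tested, 9 rose and 2 fell, beside 42.0% and 14.4% of all tested, while 9 had no call; their median was 1.79. Rises included let-7f-5p (3.88), let-7i-5p (3.92), miR-30a-5p (4.52) and miR-26a-5p (2.33). let-7b-5p (-2.58) and miR-320-3p (-1.52) fell. The miR-26a-5p call was lost with totals that leave out miR-122 and miR-122b (1.18, limma adjusted p = 0.082; 5.5e-04 to 0.082 over its alternatives). The let-7b-5p call was lost with library totals as the scale (limma adjusted p = 0.0753; 1.1e-04 to 0.0753 over its alternatives). The miR-320-3p call was lost without control replicate 1 (0.0581) or 3 (0.0939) and without palmitic acid replicate 1 (0.14), 2 (0.0899) or 3 (0.0544). No filter (0.0835), RPM (0.656) and library totals (-0.56, limma adjusted p = 0.66) ended it too (0.011 to 0.660 over its alternatives). Among the rises, miR-16-5p (1.67, limma adjusted p = 0.199) and miR-27b-3p (0.11, 0.823) were lost with totals that leave out miR-122 and miR-122b. let-7a-5p, at -0.23 (adjusted p = 0.665), passed in neither direction; it was lower with totals that leave out miR-122 (-1.38, adjusted p = 0.0161; 0.0161 to 0.978 over its alternatives). It differs little from let-7f-5p in sequence, and whether reads were split between them was not tested. miR-21a-5p changed more than 15 of these 20.

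miR-21 is also made by immune, stromal and epithelial cells, whose markers were summed as a percentage of the library without miR-122 rows. The 6 immune and Kupffer cell markers held 0.0964 to 0.519% in controls and 0.0232 to 0.0452% with palmitic acid. Most of that sum in controls was miR-146a-5p, with 130, 157 and 41 reads. miR-155-5p had 17, 1 and 0 control reads and 63, 145 and 26 with palmitic acid, and passed in neither direction (2.23, limma adjusted p = 0.176). miR-223-3p, miR-142a-3p, miR-142a-5p and miR-150-5p had at most 7 reads in any library. The 5 stellate cell and fibroblast markers held 0.128 to 0.702% and 0.0554 to 0.0753%, and the 3 endothelial markers 0.738 to 1.71% and 0.462 to 0.584%. On this scale all 3 sums were lower in every palmitic acid library than in every control. With the miR-122 rows kept, the endothelial sum was instead higher with palmitic acid (0.0907 to 0.356% in controls and 0.391 to 0.515%). The immune sums (0.0201 to 0.160% and 0.0202 to 0.0399%) and the stellate cell sums (0.0157 to 0.216% and 0.0489 to 0.0638%) then overlapped.

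The summed epithelial and biliary markers were higher with palmitic acid, and most of that sum was 1 miRNA, miR-182-5p. The 8 of them held 0.314 to 0.545% in controls and 0.647 to 1.72% with palmitic acid. Of 3 tested, 2 rose (66.7%, beside 42.0% of all tested), namely miR-96-5p and miR-182-5p, and miR-183-5p passed in neither direction. miR-96-5p was unread in controls and reached the filter in palmitic acid libraries alone. Higher was therefore the only direction open to it. miR-182-5p alone had 6951, 10948 and 3216 reads with palmitic acid. The other 5 were not tested: miR-200a-3p had 3, 1 and 7 control reads and 9, 10 and 4 with palmitic acid. miR-200b-3p had 7, 0 and 31 and then 13, 10 and 0, and miR-429-3p had 0, 0 and 14 and then none. Erythroid markers went from 0.0313 to 1.84% in controls to 0.00275 to 0.0180% with palmitic acid. Striated muscle markers went from 0.0782 to 0.762% to 0.00292 to 0.00587%. Nearly all of the muscle sum was miR-206-3p, with 221, 63 and 258 control reads and then 40, 20 and 17. miR-1a-3p had 4, 0 and 0 control reads and then none. With the miR-122 rows kept, the erythroid sums overlapped (0.00385 to 0.567% in controls and 0.00240 to 0.0159%). The muscle sums did not (0.00960 to 0.2345% and 0.00257 to 0.004975%). The erythroid miR-451a had 486, 21 and 29 reads in control replicates 1 to 3. miR-144-3p and miR-133a-3p of these last lists had no read in any library. The part of other cell types in the level of miR-21a-5p was not tested.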

How the data were processed

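Per the labels' protocols, RNA was taken up in Trizol and libraries were prepared with NEBNext Multiplex small RNA reagents. Bowtie2, bedtools, GRCm38 and mm10 appear in the submitters' processing notes with no role or version. How reads were assigned to miRNAs, and to which annotation, is not given there. Although the table is named as raw counts, the deposited values are log2(adjusted count + 1). They match counts put on one common library size by quantiles of negative binomial distributions (dispersion 1.39); this was read from the values, and no label states it. Reads were recovered by inverting this step, and of 4387 values tested 99.6% were whole within 0.0015 on the log2 scale. In 108 rows values stand without a recovered read, so the adjustment may have used further libraries.

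The deposited log2 values of 181 miRNAs, those reaching an adjusted count of 10 in 3 or more libraries, were fitted with limma 3.58.1 (R 4.3.3; group term, trended prior variance). Tests were two-sided, with Benjamini-Hochberg adjustment at 0.05. The added 1 makes fold changes of low miRNAs too small. Shares, ranks and arm ratios were computed from adjusted counts or reads, with exact permutation tests over libraries. Replicates differed beyond sampling noise (chi-square per degree of freedom 60.3 to 259). The fit was tested on simulated data. Members and lists were chosen with earlier results of these data known. miRNAs named beside miR-21a were its relatives, the 5 most alike in pattern, neighbours in abundance, and list members that passed or were most abundant. Not every one so chosen is described. Ratios to miR-122-5p, miR-192-5p, let-7a-5p, let-7f-5p and miR-30a-5p were chosen after their values were seen.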

Additional observations from a re-analysis of the deposited data

How the results depend on the processing

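The rise of miR-21a-5p passed under all 18 alternatives tried (filter, constant, scaling, variance model, replicate block, RPM, each library left out, GC trend), with log2 differences from 2.74 to 4.86 and limma adjusted p from 1.3e-05 to 0.00483. The GC alternative and the bounds on miR-21a-3p with a library left out were chosen after seeing the data. With the replicate block it stood at 3.89 (adjusted p = 3.4e-04), and the block ended no call on miR-21a-5p, miR-21b or miR-21c; of the list members called, it ended that of miR-122-5p (adjusted p = 0.105). Same-numbered libraries deviated together with correlations of 0.209, 0.151 and 0.0383, and differently numbered ones with -0.183 to 0.0623. Whether the numbers pair libraries is not known from the labels, and the main fit did not pair them. The difference of miR-21a-3p (3.40) became 4.07 with a constant of 0.5, 1.31 with 8, 4.66 with library totals, 2.61 with centred libraries and 5.22 with RPM. The limma fit tested it only with no filter, where it passed (3.40, limma adjusted p = 0.0146). The arm ratio (-0.19) turned to 0.49 with 1 added and to 0.65 from reads, was -1.24 with 0.1 added, and ran from -0.36 to 0.051 with each library left out. A minimum of 50 could not be applied to miR-21a-3p or its ratio, which lie below it. miRNAs called higher (76) numbered 50 with a minimum of 50. Those called lower (26) numbered 60 with no filter, 9 with library totals, 45 with totals without miR-122, 40 with centred libraries and 8 with RPM. With the 10 most abundant rows out of the sum, the share of miR-21a-5p differed by 32.7 percentage points in place of 15.7, and by 37.7 in place of 16.0 without miR-122. The shares kept their direction in every alternative. Depth limits miR-21a-3p, miR-21b and miR-21c in controls, where each had 0 to 6 reads per library.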
